A study of Mus musculus with 23 samples.

Results

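The 4 genes described here, Cd74, H2-DMa, Ctss and Lgmn, prepare antigen for display on MHC class II molecules. They were taken by symbol from the 3826 genes of a targeted mouse panel, and all 4 of 4 passed the filter on low counts that 2925 panel genes passed. Expression was measured in 23 mammary carcinomas that arose in mice induced with doxycyclin at 6 weeks of age. Once tumours had formed the animals were randomized, and 11 tumours came from animals given control vehicle and 12 from animals given abemaciclib (the treated group), an inhibitor of the cell cycle kinases CDK4 and CDK6, at 90 mg/kg by gavage each day. Both groups carried doxycyclin-induced tumours, and tissue was frozen after 12 doses. The labels number the tumours and name no animal, strain or transgene, so the sources used here do not give the driver that doxycyclin switched on. Whether some tumours came from the same animal is not known either. The p-values treat the tumours as independent and measure the spread between these tumours, not between animals.

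MHC class II molecules present peptides from engulfed protein to helper T cells and are made mainly by macrophages, dendritic cells and B cells, and by other cells after interferon gamma. A new class II molecule is held by the invariant chain, the product of Cd74, which fills the peptide groove and steers the complex to endosomes. Proteases there cut the invariant chain away. Cathepsin S (Ctss) makes the last cuts that leave the fragment CLIP in the groove, and legumain (Lgmn), which cuts after asparagine, opens both the invariant chain and some antigens. The DM molecule, whose alpha chain is encoded by H2-DMa, then releases CLIP so that peptide can load.

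By the GENCODE M21 annotation of mm10, H2-DMa spans 34119541 to 34139101 of chromosome 17, Ctss 95526786 to 95556403 of chromosome 3 and Lgmn 102394084 to 102439813 of chromosome 12. The panel reads 1 amplicon of about 110 bp from each gene, and where in the transcript it lies is not given in the sources used here. Levels are therefore compared between tumours for 1 gene and not between genes. The H2-DMa and Brd2 gene models overlap by 3094 bases on opposite strands, so reads of H2-DMa are uncertain if its amplicon lies there. Brd2 itself, a chromatin reader named for this overlap, differed by -0.09 in log2 (SE 0.0923) with abemaciclib.

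Stretches before the RefSeq starts of Ctss and Lgmn are shown because these 2 proteases lay above the control median in at least 11 of 12 treated tumours, and the letters let the start regions be compared. RefSeq windows of 300 bases, 250 before and 50 after a start site in GRCm38.p6, were found for 3 of the 4 members, 1 for Ctss, 2 for Lgmn and 2 for H2-DMa. The first line below is chr3:95526536-95526785, plus strand, ending at the base before the Ctss start, with a match in capitals to the core of the interferon-stimulated response element (GAAA, 2 bases of any kind, GAAA). The second is chr12:102439812-102439978, minus strand, with a match to the Y box CCAAT, read here on the reverse strand, in capitals. The Y box begins 88 bases before the RefSeq start of Lgmn, so this line stops short of that start, and its last 2 bases lie inside the longer GENCODE gene model.
Ctss: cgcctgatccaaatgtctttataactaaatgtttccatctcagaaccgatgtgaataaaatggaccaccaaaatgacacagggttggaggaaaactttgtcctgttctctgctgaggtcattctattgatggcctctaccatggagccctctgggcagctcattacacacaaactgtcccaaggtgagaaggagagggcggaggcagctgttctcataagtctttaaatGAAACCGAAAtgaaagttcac
Lgmn: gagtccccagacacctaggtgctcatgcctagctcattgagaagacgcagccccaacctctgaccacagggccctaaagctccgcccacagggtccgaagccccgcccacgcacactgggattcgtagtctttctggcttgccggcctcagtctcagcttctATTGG

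The response element core, which interferon regulatory factors bind, begins 21 bases before the Ctss start and was in 3.44% of 32851 windows, searched on both strands. Of the members' 5 windows only that of Ctss held it. The Y box, 1 of the elements of class II promoters, was in 37.4% of windows. It was in 1 Lgmn window and in 1 H2-DMa window. The E-box CACGTG, part of the element that lysosomal gene regulators bind, was in 7.15% of windows and in the other Lgmn window. The core GAGGAAG of PU.1, a factor of myeloid cells, was in 13.6% of windows and in that of Ctss, and begins 1 base before its start, so it overlaps the end of the line above. The cAMP response core TGACG was in 20.8% of windows and in none of the members' 5. The start sites of the H2-DMa windows lie 12839 and 10153 bases upstream of its annotated start codon and those of Lgmn 16000 and 15364 bases, so for neither gene do they show the sequence next to the first coding exon. A match describes letters and not a bound site.

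Library totals ran from 3044380 to 4492736 counts for the controls and from 2756919 to 4990391 for the treated tumours, of which abemaciclib tumour 9 was the shallowest. Cd74, Ctss and Lgmn rested on 725 to 19827 counts per tumour and H2-DMa on 51 to 508. Of 10 tested epithelial genes, such as Krt18 and Krt19, each was detected, with a summed level of 6062 to 11795 CPM (counts scaled to a common library size, with TMM factors) in control and 4769 to 19446 CPM in treated tumours. These are bulk tumours, in which more cells of a type and more RNA per cell cannot be told apart.

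The comparison of abemaciclib with vehicle asked whether the invariant chain and the proteins that process it differ under CDK4 and CDK6 inhibition. The mean of each member was higher in treated tumours, by log2 fold changes of 0.40 for Lgmn, 0.44 for Cd74, 0.52 for H2-DMa and 0.59 for Ctss, while the median over all 2925 tested genes was 0.0055. At least 10 of 12 abemaciclib tumours lay above the control median for each of the 4, a count that 8.51% of tested genes reached, and at least 11 did for Ctss and Lgmn, as for 3.62% of genes. By edgeR's quasi-likelihood test with Benjamini-Hochberg adjustment over all tested genes, 0 of 4 members passed 0.05, against a background of 0% of genes called higher. At an unadjusted p under 0.05, 4 of 4 members were higher, against 7.59% of genes, and 0 lower, against 5.81%. The Wald test of DESeq2 called Ctss and Lgmn, 2 of 4, against 1.61% of genes called higher, and limma-voom with quality weights called the same 2, against 1.95%. The members were chosen with such results known, so these counts describe them and do not add support.

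**Figure D1:**
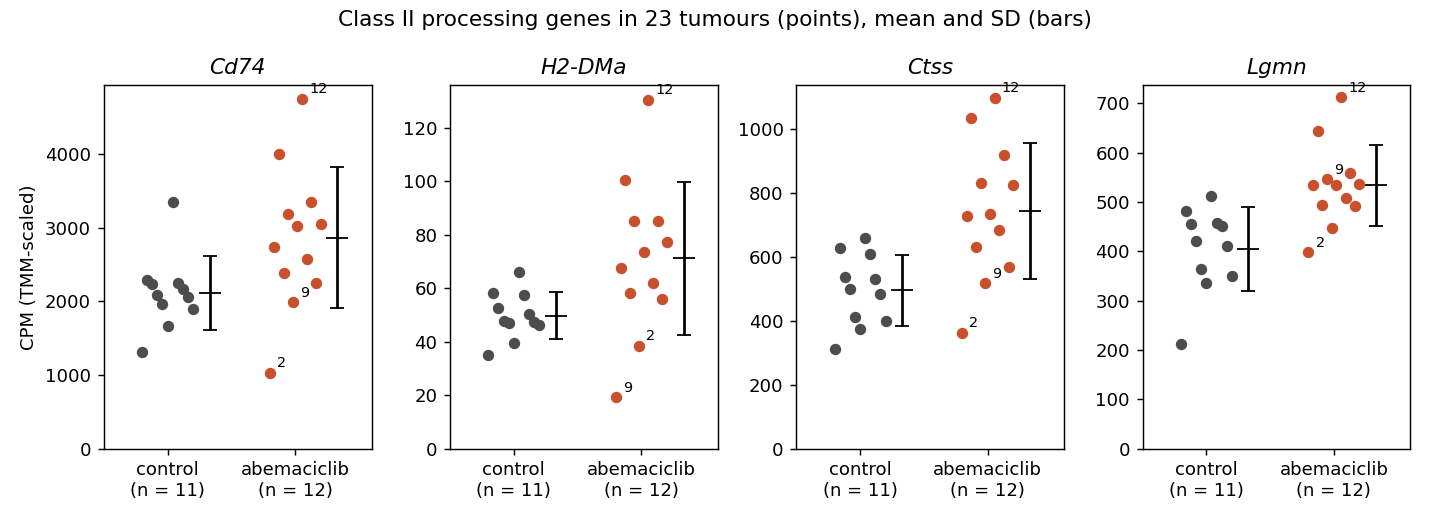
Level of each member in CPM (vertical axis, from 0) in 11 control and 12 abemaciclib tumours; points are tumours, bars are the mean and SD, and abemaciclib tumours 2, 9 and 12 are numbered. Abemaciclib tumour 12 is highest for all 4 genes, and the groups overlap in each panel.

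Ctss had the smallest p of the 4, rank 32 among all tested genes. Control tumours had a lowest level of 310 CPM, a median of 499.9 and a highest of 656, and abemaciclib tumours had 362, 730 and 1097 CPM. Abemaciclib tumours 12, 4 and 11 were the highest, and 8 of 12 lay above every control tumour, while tumours 2, 3, 8 and 9 lay inside the control range. The means were 494 ± 112 CPM (SD, n = 11) and 743 ± 213 CPM (SD, n = 12), a log2 difference of 0.59 (SE 0.158, 95% interval 0.26 to 0.91, adjusted p = 0.0872 by edgeR). With DESeq2 the adjusted p was 0.0181, and limma-voom gave 0.0166. Without abemaciclib tumour 2 the edgeR value was 0.66 with an adjusted p of 0.0294. That tumour held the lowest treated level, so a larger difference follows from leaving it out. The side of the threshold on which this gene fell depended on the test and on the tumours kept.

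Lgmn, the other protease, lay between 212 and 511 CPM in control tumours with a median of 422, and between 399 and 712 CPM in treated tumours with a median of 535. Of the controls, 4 tumours lay below the lowest abemaciclib tumour, and control tumour 7 stood lowest. Of 12 abemaciclib tumours, 7 lay above every control tumour. At least 7 was reached by 2.12% of tested genes, among them also Ctss and H2-DMa but not Cd74. The means were 405 ± 84.5 CPM (SD, n = 11) and 534 ± 82.3 CPM (SD, n = 12), a log2 difference of 0.40 (SE 0.118, 95% interval 0.16 to 0.64, adjusted p = 0.124 by edgeR, 0.0412 by DESeq2 and 0.0468 by limma-voom). Without control tumour 7 the log2 fold change was 0.33 (adjusted p = 0.151 by edgeR).

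The invariant chain gene Cd74 spans 60803848 to 60812652 of chromosome 18 in mm10. Cd74 lay between 1319 and 3349 CPM in control tumours with a median of 2085, and between 1030 and 4758 CPM in treated tumours with a median of 2881. Only abemaciclib tumours 4, 11 and 12 exceeded control tumour 9, the highest control, and abemaciclib tumour 2 lay below every control tumour. The groups thus overlapped more than for Ctss. The means were 2117 ± 499 CPM (SD, n = 11) and 2864 ± 959 CPM (SD, n = 12), a log2 difference of 0.44 (SE 0.178, 95% interval 0.07 to 0.80, adjusted p = 0.254 by edgeR, 0.168 by DESeq2 and 0.113 by limma-voom). None of the 3 tests called it.

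H2-DMa, the alpha chain of the CLIP-releasing DM molecule, lay between 34.9 and 66.0 CPM in control tumours with a median of 47.9, and between 19.3 and 131 CPM in treated tumours with a median of 70.6. Its range in treated tumours spanned both ends of the control range, with 7 tumours above every control tumour and tumour 9, on 51 counts, below every one. The means were 49.8 ± 8.70 CPM (SD, n = 11) and 71.2 ± 28.7 CPM (SD, n = 12), a log2 difference of 0.52 (SE 0.199, 95% interval 0.11 to 0.93, adjusted p = 0.216 by edgeR, 0.142 by DESeq2 and 0.0512 by limma-voom). Without abemaciclib tumour 9 it was 0.61 (adjusted p = 0.0607 by edgeR). The DM beta chains were not analysed here.

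Tumours tended to be high or low for several members at once. Of the 12 abemaciclib tumours, 10 lay above the control median for all 4 genes, tumour 9 for 2 and tumour 2 for 0. Above every control tumour for all 4 were tumours 4, 11 and 12. Among the 11 control tumours, 2 and 9 lay above the control median for all 4, and 1, 3 and 8 for none. Abemaciclib tumour 9 split the members, with Lgmn at 546 CPM, above the highest control, Ctss at 516 and Cd74 at 1993 CPM, near their control medians, and H2-DMa at 19.3 CPM. Leaving out abemaciclib tumours 2 and 9, which hold the 2 lowest values of Cd74, H2-DMa and Ctss in their group, edgeR passed Cd74 (0.57, adjusted p = 0.0367), H2-DMa (0.68, 0.0156) and Ctss (0.70, 0.0156), but not Lgmn (0.43, 0.0519). That fit removes the lowest treated tumours, so larger differences follow from its construction.

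**Figure D2:**
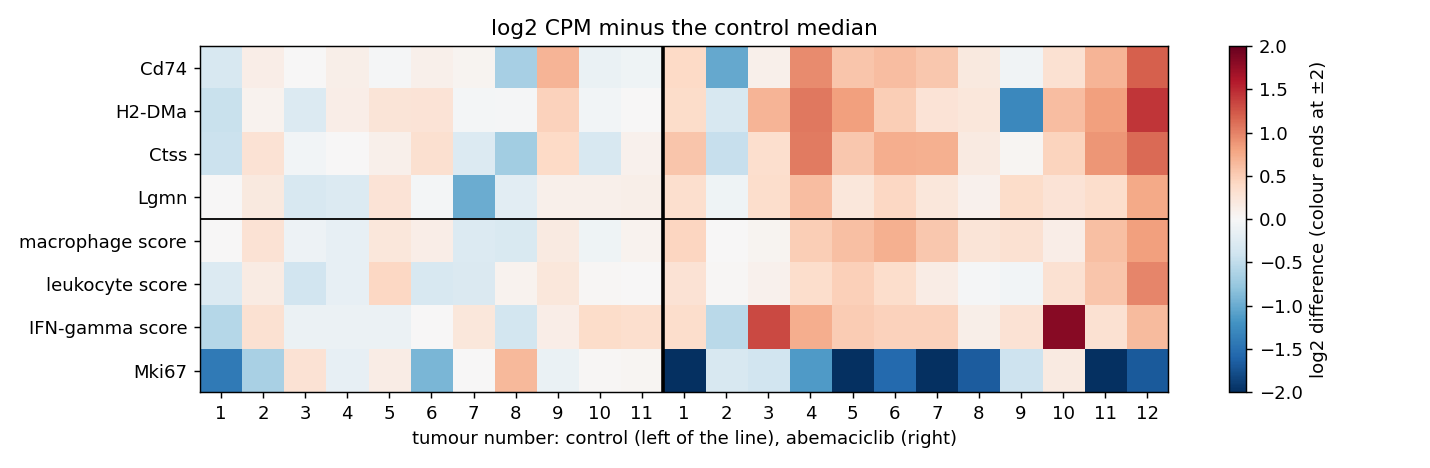
Difference from the control median in log2 CPM (colour) for each member, the 3 marker scores and Mki67 (rows) in each tumour (columns, control left of the line). In abemaciclib tumours the members are mostly red, except tumour 2 (Cd74 at -1.02) and tumour 9 (H2-DMa at -1.29).

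The spread between tumours was compared after these values were seen. In log2 CPM the SD was 0.25 in control and 0.70 in treated tumours for H2-DMa, 0.33 and 0.56 for Cd74, 0.34 and 0.45 for Ctss, and 0.35 and 0.22 for Lgmn. For all tested genes the SD was larger in the abemaciclib group in 63.3%. A two-sided permutation test of the distances from the group median gave p = 0.0628 for H2-DMa (0.251 adjusted over the 4 members), and adjusted p from 0.481 to 0.566 for the others, so no difference in spread passed. Without abemaciclib tumours 2 and 9 the SD of H2-DMa was 0.38 and that of Cd74 0.33.

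Ratios between members within a tumour, which do not depend on library scaling, were compared between groups for all 6 pairs. The log2 ratio of Cd74 to Ctss was 2.10 ± 0.189 (SD, n = 11) in the controls and 1.92 ± 0.157 (SD, n = 12) in treated tumours, a difference of -0.18, and 1 of 12 abemaciclib tumours lay above the control median (two-sided permutation test, p = 0.0176, and 0.106 adjusted over the 6 ratios). Without control tumour 6 the adjusted p was 0.0444, the only pass when 1 tumour was left out. Without control tumour 7 it was 0.245. The other 5 ratios differed between groups by -0.16 to 0.14, with adjusted p from 0.671 to 0.946. No ratio passed with all 23 tumours.

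Within groups, Cd74 and Ctss had the highest Pearson's r of the 6 pairs in both, while by rank H2-DMa with Ctss was higher in control tumours (rho 0.836). In abemaciclib tumours Pearson's r of their log2 CPM was 0.98 and Spearman's rho 0.972 (permutation p = 2.00e-05 and 3.00e-05, adjusted 7.20e-04 and 0.00108 over the 36 within-group relations computed). Without tumours 2 and 12, the farthest from the median of Cd74, r was 0.965 (adjusted p = 0.00144). In control tumours r was 0.842 and rho 0.809 (p = 4.00e-04 and 0.00437, adjusted 0.00480 and 0.0197). Without tumours 8 and 9 r was 0.719 there and did not pass (adjusted p = 0.110). Leaving out the farthest tumours also narrows the range and lowers n, so a lost call need not mean that it rested on them.

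H2-DMa was compared with both genes of this pair. In abemaciclib tumours its r with Ctss was 0.762 and its rho 0.790 (permutation p = 0.00527 and 0.00329, adjusted 0.0211 and 0.0169), and without tumours 9 and 12 r was 0.820 (adjusted p = 0.0506). Its r with Cd74 was 0.720 and its rho 0.818 (p = 0.0178 and 0.00175, adjusted 0.0642 and 0.0147), and r was 0.718 without tumours 2 and 12. In control tumours H2-DMa had r of 0.666 with Ctss and 0.631 with Cd74 (rho 0.836 and 0.655, permutation p = 0.0251 and 0.0388 for r and 0.00228 and 0.0324 for rho, adjusted 0.0754 and 0.107 for r, and 0.0147 and 0.0939 for rho). Without 2 tumours each these r were 0.479 and 0.714.

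With all control tumours, Lgmn had lower r with the other members than these had with each other. There its r was 0.0986 with Cd74, 0.273 with H2-DMa and 0.393 with Ctss, with rho of 0.0545, 0.400 and 0.473. The permutation p was 0.238 to 0.723 for r and 0.145 to 0.882 for rho (adjusted 0.317 to 0.766 and 0.261 to 0.907). Without 2 control tumours each, these r were -0.235, 0.395 and 0.543. The last was then above that of H2-DMa with Ctss (0.479). In abemaciclib tumours its r was 0.816 with Cd74 and 0.818 with Ctss (p = 0.00193 and 0.00142, adjusted 0.0112 and 0.0102), and its rho 0.622 and 0.685 (p = 0.0339 and 0.0166, adjusted 0.0939 and 0.0597). Without tumours 2 and 12 its r with Cd74 and Ctss fell to 0.479 and 0.561 and did not pass (adjusted p = 0.282 and 0.223). With H2-DMa its r was 0.516 and its rho 0.552 (p = 0.0913 and 0.0668, adjusted 0.228 and 0.166), and r was 0.839 without tumours 9 and 12 (adjusted p = 0.0440). Differences in correlation between groups or between pairs were not tested.

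**Figure D3:**
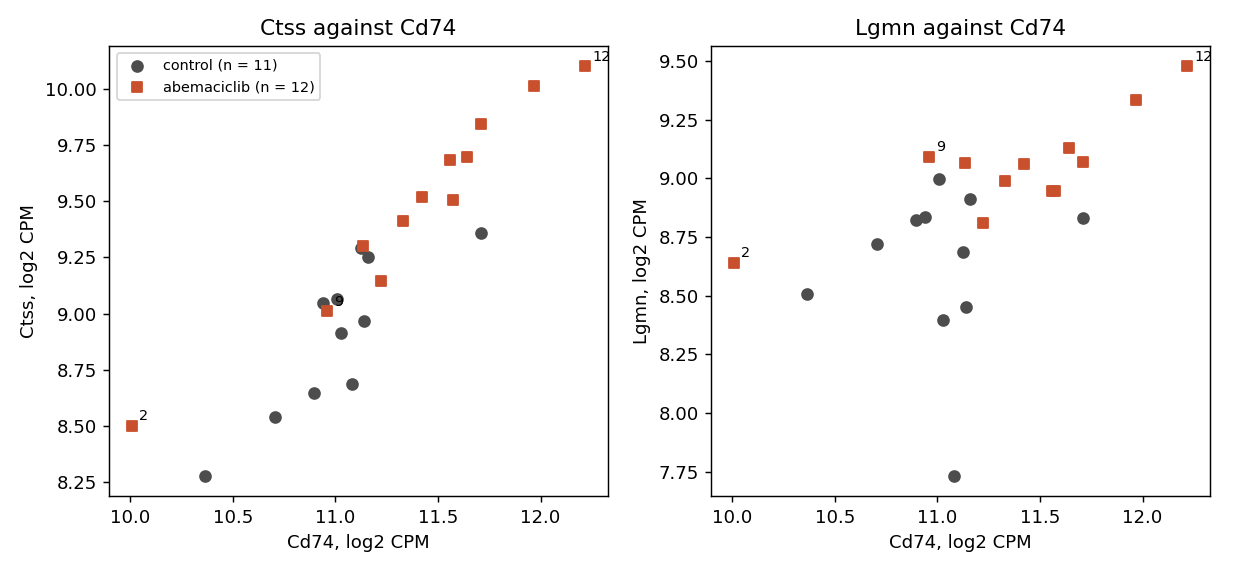
Log2 CPM of Ctss (left) and Lgmn (right) against Cd74 in each tumour, circles for 11 control and squares for 12 abemaciclib tumours, with abemaciclib tumours 2, 9 and 12 numbered. Ctss runs along Cd74 in both groups (r of 0.842 and 0.98). For Lgmn r was 0.0986 in control tumours, where no relation passed. In abemaciclib tumours it was 0.816, and 0.479 without tumours 2 and 12.

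The genes whose pattern was most like that of each member were found by Pearson's r over 23 tumours after group means were subtracted. These r describe tumours that share a library for both genes and are given with no test. Across all 2925 tested genes Ctss was the one most like Cd74, and Cd74 the one most like Ctss (r = 0.930). Outside the members, Cd74 was followed by Trpm2, a calcium channel of phagocytes (0.930), Cx3cr1, the fractalkine receptor of monocytes and macrophages (0.879), Cybb, the catalytic subunit of the phagocyte oxidase (0.854), Vav1 (0.813) and the Fc receptor Fcgr1 (0.808). Ctss shared 4 of these, Cx3cr1 (0.854), Trpm2 (0.848), Cybb (0.834) and Vav1 (0.821), and added Kynu, an enzyme of tryptophan breakdown (0.825). Cybb had a log2 difference of 0.69 with abemaciclib (SE 0.184, adjusted p = 0.0872 by edgeR), whereas Trpm2 had 0.35 (SE 0.239) and Cx3cr1 0.28 (SE 0.195).

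Outside the members, Lgmn had other neighbours over the 23 tumours than Cd74 and Ctss. They were Itgb2, the beta chain of leukocyte integrins (0.803), the complement receptor C5ar1 (0.771), the lysosomal hydrolase Hexa (0.739), Gclm, a subunit of the enzyme that starts glutathione synthesis (0.720), and Myo1f, a myosin of leukocytes (0.714). Gclm followed Lgmn in control tumours (0.908) but at 0.387 in treated tumours, and at 0.0085 there without tumour 12. The genes nearest to H2-DMa were Cd48, a surface receptor of leukocytes (0.910), the complement gene C1qa (0.893), the helicase Wrn (0.842), Phf11b (0.824) and Boc (0.809). For Wrn and Boc these values came from the abemaciclib tumours, at 0.928 and 0.918 there and -0.0851 and -0.0998 in control, and at 0.856 and 0.792 without abemaciclib tumour 9. Phf11b was at 0.902 in treated and 0.282 in control tumours. By rank among all other tested genes, the nearest fellow member of H2-DMa was Ctss at 33 and that of Lgmn was Ctss at 57. In treated tumours r of H2-DMa was 0.762 with Ctss, 0.720 with Cd74 and 0.516 with Lgmn. Without abemaciclib tumour 9 these were 0.850, 0.865 and 0.900, so the order of the members changed.

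Of the 27 symbols listed for the class II pathway, 9 were found on the panel and 8 were tested. By edgeR 0 were called in either direction, and the median log2 fold change was 0.34. At an unadjusted p under 0.05, 4 were higher, all of them the members, against 7.59% of tested genes, and 0 lower, against 5.81%. The 4 tested genes besides the members had a median of -0.10. Ifi30, a thiol reductase that unfolds antigen in endosomes, was at 255 ± 36.9 CPM in the controls and 309 ± 89.4 CPM in treated tumours, a log2 difference of 0.28 (SE 0.138, adjusted p = 0.393 by edgeR), with 6 of 12 above every control tumour. Transcription factors of class II promoters had values on the other side of zero. They were Rfx5 at -0.09 (SE 0.101), its partner Rfxank at -0.26 (SE 0.147) and Creb1 at -0.10 (SE 0.107), with adjusted p of 0.738, 0.455 and 0.719 by edgeR. Ciita, the master coactivator of class II genes, had 0 to 1 counts in control and 0 to 3 in treated tumours with a median of 0, so no difference was detectable at this depth. The class II alpha and beta chains themselves were not analysed here.

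**Figure D4:**
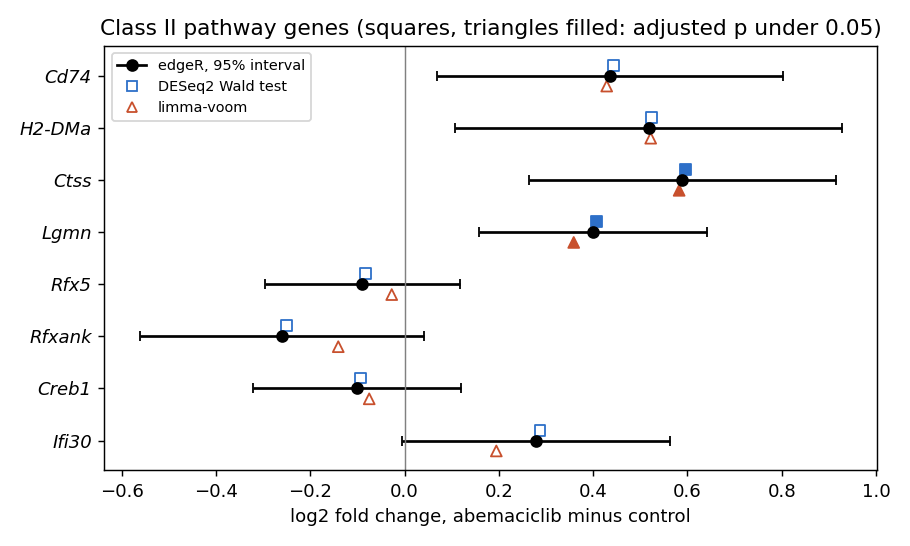
Log2 fold change of abemaciclib against control (horizontal axis) for the 8 tested class II pathway genes, as edgeR values with 95% intervals (black), DESeq2 values (squares) and limma-voom values (triangles); squares and triangles are filled where the adjusted p is under 0.05, and black points are drawn filled although no edgeR value passed. The 4 members lie between 0.40 and 0.59 by edgeR, Ifi30 at 0.28, and Rfx5, Rfxank and Creb1 below 0.

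Of the list of endosomal proteases, 10 of 10 tested had positive values, Ctss and Lgmn among them, whereas 51.1% of all tested genes were positive. The 8 besides these members had a median of 0.36, with 0 called by edgeR, 6 higher at an unadjusted p under 0.05, and 3 called by each of DESeq2 and limma-voom. Ctsl, which takes over the role of cathepsin S in thymic epithelium, was at 733 ± 122 CPM in the controls and 978 ± 127 CPM in treated tumours, a log2 difference of 0.41 (SE 0.101, adjusted p = 0.0651 by edgeR), above the control median in 12 of 12. Ctsz, a carboxypeptidase, was at 0.36 (SE 0.0983, adjusted p = 0.0912). At least 11 of 12 treated tumours lay above the control median for 3.62% of tested genes. Of all tested genes 7.59% were higher at an unadjusted p under 0.05. DESeq2 called 1.61% higher and limma-voom 1.95%. The list made for inhibitors of these proteases had 3 tested genes, Cst6, Cstb and Spp1. All 3 were positive, with 0 called by edgeR, 2 higher at an unadjusted p under 0.05 and 1 called by DESeq2. Spp1, which does not encode a cystatin, was at 0.31 (SE 0.289, adjusted p = 0.678 by edgeR), and this value is the list's median. Cstb, which blocks cathepsins in the cytosol, was at 0.30 (SE 0.0946, adjusted p = 0.146). Cst6, a secreted inhibitor of legumain and cathepsins, differed by 3.21 (SE 0.839, adjusted p = 0.0848 by edgeR). DESeq2 called it at 3.24 (adjusted p = 0.00581), but limma-voom gave 1.5 (adjusted p = 0.227). Cst6 rested on 2 to 127 counts in control and 6 to 1178 in treated tumours. All 8 tested lysosome genes had positive values, their median was 0.34, and there were 0 called by edgeR, 6 higher at an unadjusted p under 0.05 and 2 called by each of the other tests.

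Markers of the cells that carry class II also had higher values. Of all tested genes 51.1% were positive and 7.59% were higher at an unadjusted p under 0.05. DESeq2 called 1.61% of them higher and limma-voom 1.95%. Of 19 macrophage symbols 11 were on the panel, and 10 of 10 tested had positive values with a median of 0.44 and 0 called by edgeR, 6 higher at an unadjusted p under 0.05, 3 called by DESeq2 and 4 by limma-voom. The summed level of the 11 was 1668 to 3446 CPM in the controls and 2217 to 5049 CPM in treated tumours, with Marco at a median of 0 counts. Msr1, a scavenger receptor, was at 0.73 (SE 0.168, adjusted p = 0.0578), and C1qa at 0.47 (SE 0.133, adjusted p = 0.111). The mean log2 CPM of the 10 tested macrophage genes was 0.42 higher in treated tumours and above the control median in 12 of 12. The 5 pan-leukocyte genes were all positive, with a median of 0.31, a summed level of 1002 to 1688 and 1256 to 2209 CPM, and 0 called by edgeR (3 at an unadjusted p under 0.05, 1 by each other test). Among them Ptprc, which encodes CD45, was at 0.31 (SE 0.131, adjusted p = 0.284).

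Dendritic cells and B cells also carry class II. The shares of all tested genes that were higher were again 7.59% unadjusted, 1.61% by DESeq2 and 1.95% by limma-voom. Of 7 dendritic cell genes on the panel 4 were tested, all positive with a median of 0.68 and 0 called by edgeR (3 at an unadjusted p under 0.05, 2 by each other test), and with a summed level of 53.7 to 107 CPM in the controls and 71.0 to 179 CPM in treated tumours. Ly75, an endocytic receptor, was at 0.79 (SE 0.186, adjusted p = 0.0578), while Flt3 and Xcr1 had at most 9 counts. B cell genes were near zero, with 6 of 9 at a median of 0 counts, among them Ms4a1 and Pax5, a summed level of 2.74 to 16.5 and 8.43 to 25.3 CPM, and 1 tested gene, Cd22, at 0.58 (SE 0.266, adjusted p = 0.327). T cell genes had a summed level of 18.1 to 75.8 and 22.7 to 106 CPM, a median log2 fold change of 0.31 and 0 of 5 tested at an unadjusted p under 0.05. The part of cell numbers in the members' levels was not tested.

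Set against these markers in the same tumour, no member's difference between groups passed the test. Relative to the macrophage score, the mean log2 CPM of the 10 tested genes, Cd74 was at 4.35 ± 0.281 (SD, n = 11) in the controls and 4.32 ± 0.378 (SD, n = 12) in treated tumours, a difference of -0.03. The differences of H2-DMa, Lgmn and Ctss were -0.02, 0.0030 and 0.15, and that of Ctss was the largest, with 8 of 12 abemaciclib tumours above the control median (two-sided permutation test, p = 0.183). Relative to the pan-leukocyte score the differences were 0.04 for Cd74, 0.06 for H2-DMa, 0.08 for Lgmn and 0.23 for Ctss (p = 0.122 for Ctss). Adjusted over these 8 comparisons, p was 0.733 for both Ctss values and 0.971 for the other 6. These p-values do not show that the members kept a fixed ratio to the markers.

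Within groups, Ctss followed the macrophage score in both, with r of 0.792 and rho of 0.773 in control (permutation p = 0.00423 and 0.00723, adjusted 0.0190 and 0.0289) and r of 0.800 and rho of 0.804 in treated tumours (p = 0.00138 and 0.00245, adjusted 0.0102 and 0.0147). Lgmn had r of 0.764 and rho of 0.845 in control (p = 0.00218 and 0.00184, adjusted 0.0112 and 0.0147), and without tumours 2 and 8 r was 0.834 (adjusted p = 0.0302). Cd74 had r of 0.812 and rho of 0.860 in treated tumours (p = 3.40e-04 and 5.40e-04, adjusted 0.00480 and 0.00972). Without the 2 tumours farthest from the median score, r was 0.661 and 0.739 for Ctss and 0.775 for Cd74. These did not pass by permutation (adjusted p = 0.172, 0.0778 and 0.0614), with fewer tumours and a narrower range. The other 4 relations of the members with this score had r of 0.433 to 0.633 (permutation p = 0.0248 to 0.184, adjusted 0.0754 to 0.288) and rho of 0.436 to 0.545 (p = 0.0693 to 0.183, adjusted 0.166 to 0.300).

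Neither interferon gamma response genes nor Mki67 gave a relation with a member that passed. The score of 10 tested interferon gamma response genes, which include Cxcl9 and Icam1, had r of 0.0517 to 0.495 with the members in the 2 groups (permutation p = 0.120 to 0.883, adjusted 0.228 to 0.883) and rho of 0.200 to 0.664 (p = 0.0222 to 0.553, adjusted 0.0728 to 0.642). Of these genes 10 of 10 had positive values, and their median was 0.49. There were 0 called by edgeR, 6 higher at an unadjusted p under 0.05 and 3 called by each other test. Over all tested genes the shares higher were 7.59% unadjusted, 1.61% by DESeq2 and 1.95% by limma-voom. Abemaciclib tumours 3 and 10, whose score was 1.32 and 1.81 above the control median on the log2 scale, had Cd74 at 2247 and 2576 CPM, inside the control range, and H2-DMa at 77.2 and 73.7 CPM, above every control. Ctss was inside that range in tumour 3 (631 CPM) and above it in tumour 10 (681 CPM). Lgmn was above its control range in tumour 3 (535 CPM) and inside it in tumour 10 (508 CPM). In both tumours all 4 members lay above their control medians. Tumour 12, the highest for every member, had a score 0.63 above the control median. Mki67, a marker of dividing cells, had r of -0.484 to 0.184 with the members (permutation p = 0.109 to 0.798, adjusted 0.228 to 0.821) and rho of -0.510 to -0.0210 (p = 0.0927 to 0.957, adjusted 0.188 to 0.957). It was at 90.1 ± 32.2 CPM in the controls and 43.7 ± 32.0 CPM in treated tumours, a log2 difference of -1.04 (SE 0.339, adjusted p = 0.150 by edgeR), and limma-voom gave -1.45 with an adjusted p of 0.0111 and DESeq2 -1.04 with 0.0641.

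Class I presentation, the parallel route for peptides made inside the cell, had larger values on the log2 scale. All 6 of 6 tested genes had positive values, and their median was 0.74. There were 0 called by edgeR, 5 higher at an unadjusted p under 0.05 and 3 called by each other test. Over all tested genes the shares higher were 7.59% unadjusted, 1.61% by DESeq2 and 1.95% by limma-voom. B2m, the class I light chain, was at 1.19 (SE 0.295, adjusted p = 0.0709 by edgeR). The difference between the class I and class II values was not tested.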

How the data were processed

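Total RNA of 23 frozen mammary tumours was read with an Ion AmpliSeq custom panel, per the labels' protocols. The authors deposited 1 table of whole-number counts for each gene, which they had not normalized. Reads were placed on mm10, per the submitters' processing notes, and the sources used here name neither aligner nor counting program. Without molecular identifiers, PCR copies are counted too.

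Counts were tested in R 4.3.3 with edgeR 4.0.16 on the whole table, after filterByExpr (2925 of 3826 genes kept) and TMM scaling, with two-sided tests (glmQLFit, glmQLFTest) and p-values adjusted by Benjamini-Hochberg, at a threshold of 0.05. The SE is the log2 fold change over the root of F. The biological coefficient of variation was 32.6%. The fit was tested on simulated data. Log2 CPM used a prior count of 2. Permutation tests used 100000 resamples, but fewer for ratios and marker-relative differences with 1 tumour left out. Those of group differences were run in scipy 1.17.1. Totals ranged from 2756919 to 4990391 counts. Between tumours (253 pairs) chi-square over its degrees of freedom was at least 18.4, so none was a copy of another.

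Alternatives were other scalings and filters, robust empirical Bayes, DESeq2 1.42.0, limma 3.58.1 (voom, weighting samples by quality), a block on replicate number, and leaving out tumours. The members, lists and rules were chosen with earlier results of these data known. Named were the members, all tested pathway genes, up to 4 genes with the smallest p from each list, Mki67, and the 5 genes most like each member. The test of spread was added after seeing the data. Of the 17 lists, fibroblast, endothelial, neutrophil, proliferation and housekeeping genes had median log2 fold changes of 0.37, 0.11, 0.23, -1.04 and -0.02, and epithelial genes -0.02. Some items that were searched are not reported here.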

Additional observations from a re-analysis of the deposited data

How the results depend on the processing

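The 4 members kept a positive log2 fold change under every alternative run. Leaving out 1 tumour at a time gave 0.35 to 0.52 for Cd74, 0.40 to 0.61 for H2-DMa, 0.53 to 0.66 for Ctss and 0.33 to 0.44 for Lgmn, with adjusted p from 0.0294 (Ctss without abemaciclib tumour 2) to 0.403 by edgeR. Scaling to library totals, which moved the median of all genes to -0.12, gave 0.31, 0.39, 0.47 and 0.28. Calls appeared with DESeq2's Wald test (Ctss 0.60, Lgmn 0.41) and limma-voom (Ctss 0.58, Lgmn 0.36), without abemaciclib tumours 3 and 10 (Ctss 0.61, adjusted p = 0.0433), and without 2 and 9 (Cd74 0.57, H2-DMa 0.68, Ctss 0.70). Over the whole panel edgeR called 0 genes, library totals 1, DESeq2 60, limma-voom 127, the fits without tumours 3 and 10 or 2 and 9 gave 93 and 70, and leaving out 1 tumour gave 0 to 47, the most without abemaciclib tumours 10 (21 higher, 26 lower) and 2 (19 and 11), then 3 (4 and 6) and control 6 (5 and 4), and at most 2 without any other. The cause was not tested. Same-numbered tumours of the groups correlated at -0.43 to 0.45, over 0.1 in 5 of 11 pairs. Of 11 control tumours, 2 correlated best with their own number. The labels do not say whether the numbers pair the tumours, and these correlations cannot decide it. With the replicate number as a block, a fit that also drops abemaciclib tumour 12 because no control shares its number, the members were at 0.32, 0.34, 0.52 and 0.38 with adjusted p from 0.190 to 0.556 and 0 genes called, against 0.35, 0.40, 0.53 and 0.36 without tumour 12 alone.

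Values near 0 changed sign. The ratio of Cd74 to H2-DMa turned to 0.058 without tumours 3 and 10, and Cd74 to Lgmn and H2-DMa to Lgmn to 0.11 and 0.19 without 2 and 9. Leaving out 1 tumour gave -0.13 to 0.041, -0.091 to 0.058 and -0.078 to 0.14 for these. Relative to the macrophage score, Lgmn turned to -0.036 with a median over the list, -0.057 without 3 and 10 and -0.012 without 2 and 9, and Cd74 and H2-DMa to 0.096 and 0.18 without 2 and 9. Leaving out 1 tumour gave -0.059 to 0.031, -0.080 to 0.055 and -0.073 to 0.13, and -0.032 to 0.15 for Cd74 relative to pan-leukocyte genes. In control tumours r of Cd74 with Lgmn turned to -0.031 with housekeeping scaling and -0.24 without 2 tumours, and r with the interferon gamma score to -0.093, -0.13 and -0.19 for Cd74, H2-DMa and Ctss without 2 tumours. With Mki67, r turned to -0.34 for H2-DMa without 2 tumours, and with library totals to 0.23, 0.090 and 0.17 for Cd74, Ctss and Lgmn in control and 0.46 for Lgmn in abemaciclib tumours. The difference in spread of Ctss turned to -0.023 without 2 and 9. In control tumours r of Ctss with the macrophage score lost its call with library totals (0.601) and housekeeping scaling (0.654), while housekeeping scaling brought r of H2-DMa and Lgmn with that score in treated tumours past the threshold (0.736 and 0.813), and likewise H2-DMa with Lgmn (0.798) and with Cd74 (0.809, and 0.731 with library totals). H2-DMa rests on as few as 51 counts, and Ciita on at most 3.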
